A study of Arabidopsis thaliana with 12 samples.

Results

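The genes described here lie beside AT3G21630 on chromosome 3, the gene of the Arabidopsis chitin receptor CERK1, also called LYSM RLK1. They are AT3G21620, AT3G21670, ICL (AT3G21720), UGT71B1 (AT3G21750) and AT3G22060, 5 of the 13286 genes that had a probe set of their own and were found among the genes of assembly TAIR10.1. Each has 1 probe set. They were chosen by their measured genotype differences, as close neighbours of the receptor gene whose signal differed between wild type and receptor mutant both in water and in chitooctaose. The genotype differences are therefore what chose these genes, and they are given below as a description with no test. The responses to chitooctaose within each genotype were not used in the choice and were tested. The difference between these responses was tested too, but it equals the change of the genotype difference with treatment. Both genotype differences entered the choice, so this test is not independent of it.

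RNA was taken from whole seedlings of Arabidopsis thaliana after 14 days in liquid MS medium under constant light at 23 °C. Plants were either wild type (Col-0) or a mutant, also in Col-0, with a mutation in the chitin receptor. The labels name neither the allele nor the line, and whether its chromosome 3 is otherwise that of the wild type was not analysed here. Seedlings of each genotype received chitooctaose, a soluble chitin fragment, at 1 uM (the labels write "um") or water for 30 minutes, which gives 4 groups of 3 arrays. The labels title the arrays biological replicates without naming separate cultures, so p-values measure the spread between these samples.

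The 12 arrays had median intensities of 177.7 to 200.8, and over all probe sets the r between any pair of arrays within a group was 0.984 to 0.993. No probe set was named for the receptor gene itself, and the genotype labels were therefore not checked by its transcript. A gene counts as measured here if a probe set is named for it alone, and 8730 of the probe sets had no named gene. A gene not measured in this sense may still have a probe set on the arrays. Of 8 root markers 6 were measured and none was at 0 on any array. Of 8 photosynthesis markers 1 was measured, RCA, the Rubisco activase gene of green tissue, which lay between 13513 and 16002 on all arrays. Every difference below is one of log2(intensity + 16) between group means of 3 arrays, a scale that understates changes in dim probe sets, and is followed by its standard error unless an SD is named. Called means that limma gave a p under 0.05 after Benjamini-Hochberg adjustment across the 22746 probe sets. The comparisons share arrays, since each group enters a response and a genotype difference. A random split of 3 arrays against 3 leaves the groups without overlap at a rate of 0.1. Groups of 3 that do not overlap are therefore given below as a description only.

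CERK1 is a LysM receptor-like kinase of the plasma membrane that is needed for the Arabidopsis response to chitin, the polymer of fungal cell walls. Of its neighbours, ICL codes for isocitrate lyase, which splits isocitrate into glyoxylate and succinate in the glyoxylate cycle. Oil-storing seedlings use that cycle to turn fatty acids into sugar after germination, and its enzymes normally decline once the seedling is green. AT3G21670 codes for NPF6.4, a transporter of the NRT1/PTR family described as a nitrate transporter. UGT71B1 codes for a UDP-glucosyltransferase, an enzyme class that joins glucose to small molecules. AT3G21620 and AT3G22060 carry only a locus identifier in the gene table, so no role is given for them.

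The 5 genes are not a row of adjacent genes. In the order of protein-coding genes AT3G21620 lies 1 gene before the receptor gene, and AT3G21670, ICL and UGT71B1 lie 4, 9 and 12 genes after it. AT3G22060 lies 49 genes after it. Of the 20 genes within 10 positions of the receptor gene 12 were measured by a probe set of their own, and of the 200 genes within 100 positions 75 were, by 77 probe sets.

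ICL had the widest separation between genotypes of the 5 genes. Its intensity in wild type was 81, 68.2 and 73.9 on the 3 water arrays and 63.4, 51.1 and 60 on the 3 chitooctaose arrays. In the mutant it was 1114, 1097 and 1115 in water and 1062, 1130 and 1082 in chitooctaose. Every mutant array lay above every wild type array, by a margin far wider than the spread within any group. The mutant was higher by 3.64 ± 0.09 on the log2 scale in water and by 3.90 ± 0.09 in chitooctaose, ranking 5 and 38 by size among all probe sets. In bulk seedlings, fewer cells of a type and less RNA per cell cannot be told apart, nor can more of either.

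AT3G21620, the gene directly before the receptor gene, was dim in wild type and brighter in the mutant. In wild type it gave 8.2, 20 and 18.5 in water and 5.25, 14.3 and 14.3 in chitooctaose, all below the lower quartile of the arrays (51.6 to 59). In the mutant it gave 78, 83.5 and 95.9 in water and 66.6, 78.2 and 69.4 in chitooctaose. The lowest mutant array was thus above the highest wild type array in both treatments. The log2 difference was 1.71 ± 0.19 in water and 1.70 ± 0.19 in chitooctaose. Because the wild type signal is so low, the size depends on the pseudocount, with 2.47 in water for a pseudocount of 1 and 0.91 for one of 64.

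UGT71B1 and AT3G21670 differed by far less. UGT71B1 gave 295, 323 and 330 in wild type water and 284, 310 and 336 in wild type chitooctaose, against 413, 486 and 490 and 410, 460 and 469 in the mutant. The genotypes did not overlap, and the mutant was higher by 0.53 ± 0.10 in water and 0.50 ± 0.10 in chitooctaose. The nitrate transporter gene AT3G21670 gave 528, 543 and 491 in wild type water and 603, 669 and 669 in mutant water. In chitooctaose it gave 289, 320 and 305 in wild type and 394, 417 and 343 in the mutant. Here too the groups of 1 treatment did not overlap, although the margin was narrow, and the mutant was higher by 0.30 ± 0.09 and 0.32 ± 0.09.

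AT3G22060 was the 1 gene of the 5 that was lower in the mutant. In water it gave 128, 119 and 124 in wild type and 53.7, 93.2 and 80.8 in the mutant. In chitooctaose it gave 250, 287 and 234 in wild type and 115, 115 and 91 in the mutant. The groups did not overlap, and mutant water was the most scattered group of this gene, with an SD of 20.2 against 4.5 in wild type water. The log2 difference was -0.63 ± 0.15 in water and -1.15 ± 0.15 in chitooctaose.

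**Figure D1:**
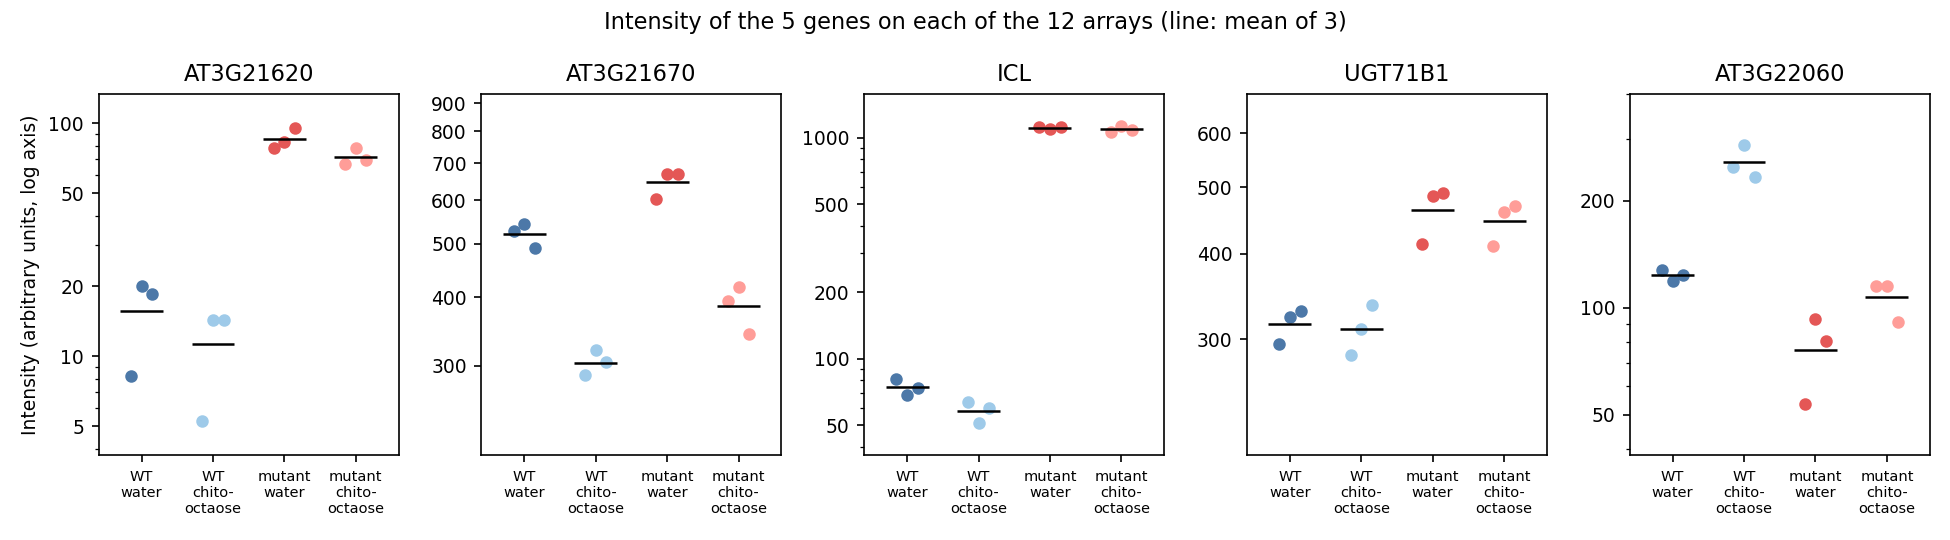
Intensity of each of the 5 genes (log axis, own scale per panel) on the 3 arrays of wild type (WT) and mutant in water and in chitooctaose; points are arrays and lines are group means. ICL and AT3G21620 sit at 2 levels set apart by genotype, AT3G21670 is lower in chitooctaose in both genotypes, and AT3G22060 is highest in wild type with chitooctaose.

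Over all probe sets 10.3% were called between genotypes in water (4.03% higher and 6.3% lower in the mutant) and 17.3% in chitooctaose (7.77% higher and 9.5% lower). Median centring turned the order in water, with 1700 higher and 1560 lower against 917 and 1434 without it, and quantile normalization gave 1569 higher and 1700 lower there. In chitooctaose quantile normalization gave 3584 higher and 2128 lower, against 1768 and 2161. In both comparisons, and in the same direction, 3.73% were called. That all 5 genes meet this, with 4 higher and 1 lower, is how they were chosen. Their median genotype difference, which follows from the same choice, was 0.53 in water and 0.50 in chitooctaose. Over all probe sets the median was 0 in each.

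Markers of another tissue moved with the genotype in water. There 5 of the 6 measured root markers were lower in the mutant, AT1G52070 by -1.51 ± 0.13, AT1G52060 by -1.42 ± 0.08, AT5G17820 by -0.67 ± 0.08, and the root hair expansin gene EXPA7 by -0.65 ± 0.12, while PYK10, a root beta-glucosidase gene, stood at -0.01 ± 0.07. Their summed intensity ranged from 15421 to 16427 in wild type water and from 12244 to 13400 in mutant water. In chitooctaose the sums were 12360 to 13805 in wild type and 12631 to 13819 in the mutant, and limma called 0 of 6, with 1 at an unadjusted p under 0.05. PYK10, with group means from 9531 to 9846, makes up most of each sum. The genotype differences of ICL, AT3G21620, UGT71B1 and AT3G21670 in chitooctaose were 3.90, 1.70, 0.50 and 0.32, and that of AT3G22060 was -1.15. Whether root content has a part in the genotype differences of the 5 genes was not tested.

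The 5 genes were chosen for their pattern, and most measured genes between and around them did not share it. Before the receptor gene the 5 other measured genes within 10 positions, AT3G21540, AT3G21570, AT3G21590, AT3G21600 and AT3G21610, had genotype differences from -0.42 to 0.07 in water and from -0.24 to 0.34 in chitooctaose. AT3G21610, next to AT3G21620, stood at -0.02 ± 0.09 in water and 0.08 ± 0.09 in chitooctaose. Between the receptor gene and ICL, AT3G21660 stood at -0.27 and -0.38 and SGP2 at -0.08 and 0.15. AT3G21650, the second gene after the receptor gene, stood at 0.20 ± 0.12 in water and -0.95 ± 0.12 in chitooctaose.

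Genes just outside the criterion were past the threshold in 1 treatment, or in both with opposite signs. AT3G21690, 6 genes after the receptor gene, was higher in the mutant by 0.65 ± 0.15 in water and by 0.15 ± 0.15 in chitooctaose, and AT3G21790, at 16, differed by 0.36 ± 0.10 and -0.16 ± 0.10. AT3G21770, at 14, passed it in both, with -0.36 ± 0.07 in water and 0.24 ± 0.07 in chitooctaose. Just inside stood AT3G21670, with the smallest differences of the 5. Of the 72 other probe sets within 100 positions, 5 passed the threshold in water and 11 in chitooctaose. The 5 genes were chosen for passing it in both with 1 sign, so the count of others that did so, 0, is no result. The nearest genes beyond that did so were AT3G22550, 108 genes after the receptor gene (1.30 ± 0.08 and 0.63 ± 0.08), and AT3G20510, 124 genes before it (-0.23 ± 0.06 and -0.44 ± 0.06), both picked out after their values were seen.

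**Figure D2:**
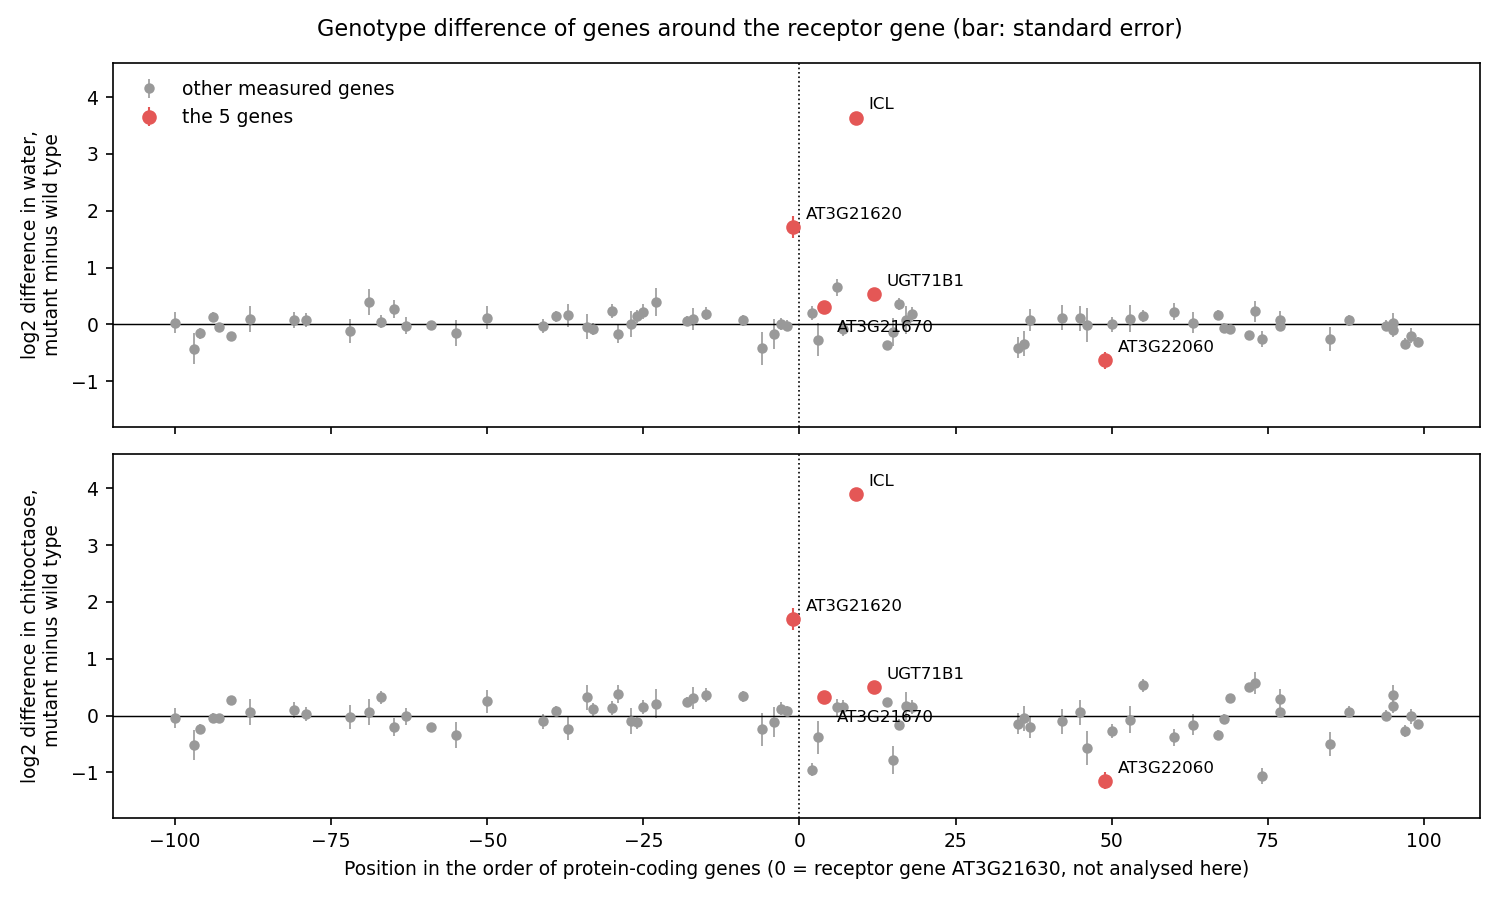
Genotype difference (log2, mutant minus wild type) in water and in chitooctaose of each measured probe set within 100 protein-coding genes of the receptor gene, by position in gene order; bars are standard errors. The 5 genes are in red, ICL stands at 3.64 and 3.90, and the other 72 probe sets lie between -0.43 and 0.65 in water and between -1.06 and 0.57 in chitooctaose.

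Because the 5 genes were chosen for these calls, counts by distance are given without them. Leaving out called genes lowers the shares near the receptor gene, while those farther out keep all their calls. In water 1 of 9 other probe sets within 10 positions passed the threshold between genotypes (11.1%), 3 of 19 within 25 (15.8%), 3 of 36 within 50 (8.33%) and 5 of 72 within 100 (6.94%). In chitooctaose the counts were 2 of 9 (22.2%), 4 of 19 (21.1%), 4 of 36 (11.1%) and 11 of 72 (15.3%). Beyond 100 positions the rest of chromosome 3 had 9.75% in water and 15% in chitooctaose over 2461 probe sets, and the other nuclear chromosomes 8.74% and 15.8% over 10621. With those of the 5 genes in the window counted, the shares within 10 and 100 positions were 33.3% and 13% in water. In chitooctaose they were 41.7% and 20.8%, and counting genes chosen for their calls raises these shares. The nearest windows hold few probe sets, and no test of these shares was made.

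The response to chitooctaose asks whether these genes also react to the elicitor, and whether that reaction needs the receptor. In wild type 3 of the 5 genes were called, 1 higher and 2 lower, where 18.9% of all probe sets were called (8.82% higher and 10.1% lower). Their median response was -0.21, against -0.04 over all probe sets. In the mutant 1 of 5 was called, where 1.49% of all probe sets were, and 2 of 5 had an unadjusted p under 0.05. The difference of the responses was called by limma for 0 of 5, where 11.3% of all probe sets were, and 1 of 5 had an unadjusted p under 0.05. A choice of genes that differ between genotypes in both treatments favours a small difference of the responses, so this count is not independent of the choice. Root markers moved with the wild type response, 5 of 6 being lower in chitooctaose, while in the mutant 1 of 6 was called, AT1G52060, higher by 0.37 ± 0.08. That call was lost in 5 of 12 fits without an array, those of mutant chitooctaose replicates 2 and 3 and of each mutant water array (adjusted p up to 0.11), and without a mean-variance trend (0.071). Their part in the responses of the 5 genes was not tested.

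AT3G21670, the nitrate transporter gene, fell in both genotypes and by like amounts. It fell by 0.74 on the log2 scale in wild type (SE 0.09, limma adjusted p = 5.9e-06), from a mean of 521 ± 26.5 to 304 ± 15.5 (SD, n = 3 each). In the mutant it fell by 0.73 (SE 0.09, adjusted p = 0.00019), from 647 ± 38.1 to 385 ± 37.8 (SD, n = 3 each). All 3 chitooctaose arrays lay below all 3 water arrays in each genotype. The difference of the responses was 0.02 ± 0.12 with a 95% confidence interval from -0.25 to 0.28, so a difference as large as the response itself lies outside the interval.

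AT3G22060 rose in wild type by 0.97 ± 0.15 (limma adjusted p = 0.00011), and its wild type groups did not overlap. In the mutant the value was 0.44 ± 0.15 (adjusted p = 0.22), with mutant water and chitooctaose arrays that overlapped at 93.2 and 91. The difference of the responses was -0.53 ± 0.21, with an interval from -0.97 to -0.09 and adjusted p = 0.13. It passed the threshold without mutant water replicate 1, the array at 53.7 (-0.71, adjusted p = 0.015), and with a pseudocount of 64 (-0.48, adjusted p = 0.044).

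ICL fell slightly in wild type, by 0.29 (SE 0.09, limma adjusted p = 0.033), from a mean of 74.4 to 58.2, and its wild type groups did not overlap. This call was lost with median centring (adjusted p = 0.069), with a pseudocount of 64 (0.094), with only the wild type arrays in the fit (0.23), and without wild type chitooctaose replicate 2 (0.13), wild type water replicates 1 (0.14) and 3 (0.068) or mutant water replicate 2 (0.053). In the mutant ICL stood at -0.02 ± 0.09, with an interval from -0.21 to 0.17. The difference of the responses was 0.26 ± 0.13 (adjusted p = 0.23).

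Neither AT3G21620 nor UGT71B1 had a called response. UGT71B1 stood at -0.03 ± 0.10 in wild type and -0.05 ± 0.10 in the mutant, and both intervals, -0.23 to 0.18 and -0.25 to 0.15, leave out changes as large as its genotype difference. AT3G21620 stood at -0.21 ± 0.19 and -0.22 ± 0.19, with intervals from -0.62 to 0.20 and from -0.63 to 0.19. Its intervals are the widest of the 5 genes, and its array-to-array SD within groups, 0.23 on the log2 scale, was above the median of all probe sets, 0.15. That of ICL was the lowest of the 5, at 0.08.

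**Figure D3:**
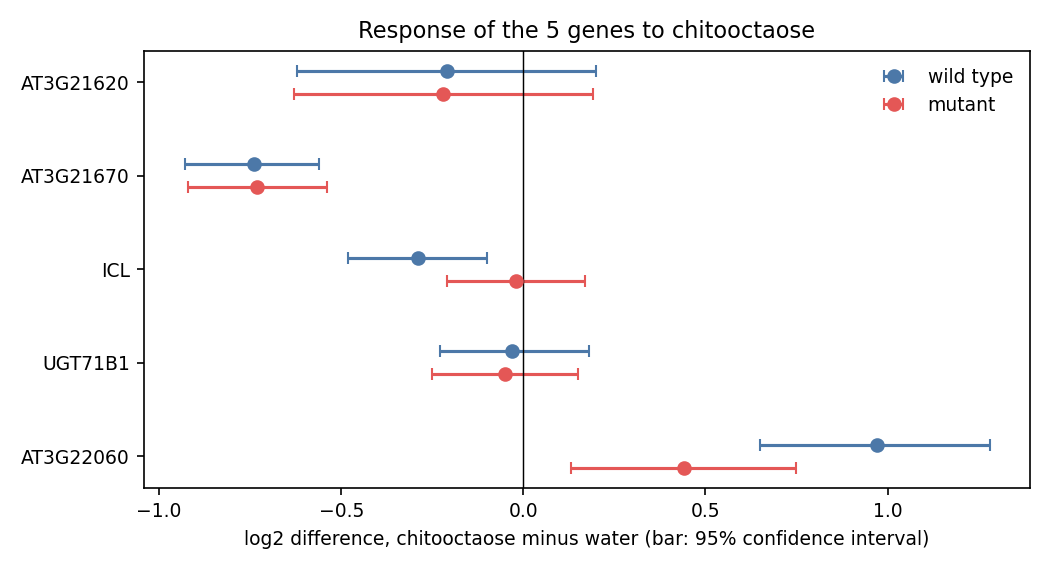
Response to chitooctaose (log2 difference, chitooctaose minus water) of the 5 genes in wild type and in the mutant; points are estimates over 3 arrays per group and bars 95% confidence intervals. AT3G21670 lies near -0.74 and -0.73 in the 2 genotypes, AT3G22060 at 0.97 and 0.44, and the other intervals, apart from that of ICL in wild type, include 0.

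Other neighbours responded to chitooctaose at about the rate of all probe sets. Of the 72 probe sets within 100 positions that are not of the 5 genes, 13 were called in wild type (18.1%) and 1 in the mutant (1.39%). Within 25 positions 4 of 19 were called in wild type, AT3G21650, AT3G21770, UGT71B6 and AT3G21790. AT3G21650, separated from the receptor gene by a single gene, rose in wild type by 0.93 ± 0.12 (limma adjusted p = 2.2e-05), from 275, 330 and 248 to 467, 589 and 610. In the mutant it gave 328, 320 and 333 in water and 304, 297 and 236 in chitooctaose, a change of -0.23 ± 0.12 (adjusted p = 0.55). AT3G21770 fell in wild type by 0.35 (adjusted p = 0.0013), while its mutant value was 0.25 ± 0.07 (adjusted p = 0.091).

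UGT71B1 has close relatives beside it and elsewhere, so its family was set beside it. Of 13 listed UGT71 genes 10 were measured, of which AT3G21790 has no symbol in the gene table and is counted by its place in the list. In water 2 were higher in the mutant, UGT71B1 and AT3G21790, and 3 lower, UGT71C1 by -0.70 ± 0.11, UGT71C2 by -0.45 ± 0.09 and UGT71C3 by -0.29 ± 0.09. The call of UGT71C3 was lost in 10 of 12 fits without an array. In chitooctaose UGT71B1 was higher, and UGT71B6 (-0.78 ± 0.25), UGT71C5 (-0.43 ± 0.07) and UGT71C2 (-0.37 ± 0.09) were lower. The chitooctaose arrays of UGT71B6 overlapped between genotypes. Over all probe sets 10.3% were called between genotypes in water and 17.3% in chitooctaose. UGT71B1 was chosen for its genotype calls, so among the family it is no result. The difference of the responses, which equals the change of the genotype difference with treatment, was called for 3 of 10, UGT71C1 (0.65 ± 0.15), AT3G21790 (-0.52 ± 0.14) and UGT71C3 (0.46 ± 0.13), against 11.3% of all probe sets. The call of AT3G21790 was lost in 3 of 12 fits without an array and that of UGT71C3 in 4 of 12. UGT71B6 and UGT71B8, 15 and 17 genes after the receptor gene, stood at -0.13 ± 0.25 and 0.08 ± 0.25 in water.

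Chitooctaose raised 3 UGT71 genes in wild type, UGT71B6 by 0.86 ± 0.25, AT3G21790 by 0.40 ± 0.10 and UGT71C5 by 0.28 ± 0.07, while UGT71C3 fell by 0.51 (SE 0.09) and UGT71C1 by 0.45 (SE 0.11). The call of UGT71B6 was lost in 3 of 12 fits without an array. Limma called 0 of 10 in the mutant, where 0 had an unadjusted p under 0.05. Over all probe sets 18.9% were called in wild type and 1.49% in the mutant, so a count of 0 of 10 in the mutant says little about the family. The median response of the 10 was 0.09 in wild type and -0.04 in the mutant.

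**Figure D4:**
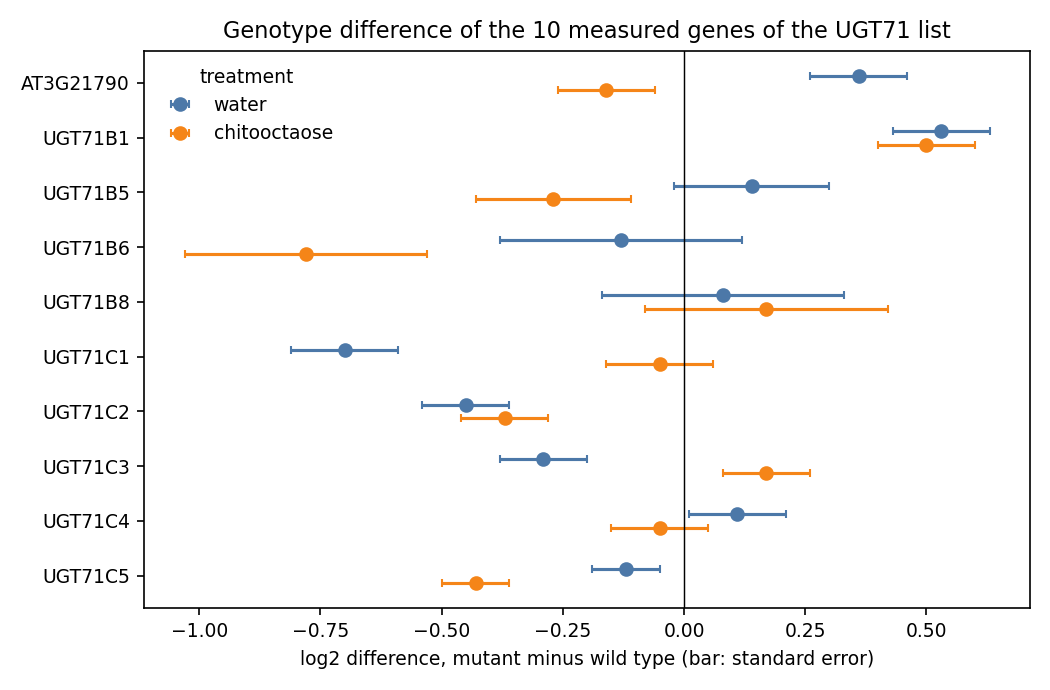
Genotype difference (log2, mutant minus wild type) of the 10 measured genes of the UGT71 list in water and in chitooctaose; bars are standard errors. UGT71B1 stands at 0.53 and 0.50, UGT71C2 at -0.45 and -0.37, and UGT71C1 at -0.70 and -0.05.

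Few genes in the pathways of ICL and of AT3G21670 had a probe set named for them alone, so these pathways were sparsely measured. Of 12 genes of the glyoxylate cycle and its exit only ICL and cICDH, a cytosolic isocitrate dehydrogenase gene, were measured. At -0.04 ± 0.07 in water and 0.01 ± 0.07 in chitooctaose, cICDH was not called between genotypes. Of 13 genes of peroxisomal fatty acid oxidation 2 were measured. SDP1, the lipase gene that starts the breakdown of seed oil, was lower in mutant water by -0.38 ± 0.11, a call lost in 4 of 12 fits without an array, and AIM1, a beta-oxidation gene, stood at 0.13 ± 0.07. In chitooctaose limma called 0 of these 2, where 17.3% of all probe sets were called, and 0 had an unadjusted p under 0.05.

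Of 13 genes induced by sugar starvation and darkness 3 were measured, all of them for the breakdown of leucine and other branched-chain amino acids. In water IVD was lower in the mutant by -0.88 ± 0.08 and MCCA by -0.77 ± 0.07, and MCCB, at -0.21 ± 0.09, was not called. In chitooctaose IVD stood at 0.01 ± 0.08 and MCCB at 0.04 ± 0.09, and MCCA was lower by -0.27 ± 0.07. All 3 fell with chitooctaose in wild type, IVD by 0.96, MCCA by 0.78 and MCCB by 0.37, and limma called 0 of 3 in the mutant, with 1 at an unadjusted p under 0.05. Over all probe sets 10.1% were called lower in wild type and 1.49% were called in the mutant, so 0 of 3 there says little. Between genotypes 6.3% of all probe sets were called lower in water and 9.5% in chitooctaose. Of 25 genes of nitrate transport and assimilation 3 were measured, AT3G21670 and 2 other transporter genes. AT2G26690 fell in wild type by 0.39 (SE 0.11, limma adjusted p = 0.023), a call lost in 3 of 12 fits without an array. In the mutant it stood at -0.33 ± 0.11 (adjusted p = 0.24), and NRT2.5 was not called in either genotype.

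The genes whose pattern over the 12 arrays was most like each of the 5 were named by a measure of likeness. Likeness is the root mean square difference of log2 values after each gene is centred on its own mean, so it follows the size of a change as well as its shape, and it is given as a description. For ICL, whose SD over the arrays was 1.97, the closest were AT4G17660 at 0.60, AT2G04070 at 0.61 and AT1G80130 at 0.64. For AT3G21620, with an SD of 0.92, they were AT3G28540 at 0.24, APL3, an ADP-glucose pyrophosphorylase subunit gene, at 0.27 and SAG29, the sugar transporter gene SWEET15, at 0.28. The genotype differences of these 6 genes ranged from 1.43 to 3.44 over both treatments.

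The likeness value grows with a gene's own spread, so it gives no order between the 5 genes. AT3G21670, with an SD of 0.43, resembled AT2G47440 at 0.09, AT4G33960 at 0.11 and AT3G15570 at 0.13, with responses from -0.92 to -0.46 over both genotypes. UGT71B1, with an SD of 0.29, resembled AT5G01780, AT5G53820 and UGT78D1, a flavonol rhamnosyltransferase gene, at 0.10 each. AT3G22060, with an SD of 0.63, resembled AT2G28570 at 0.16, AT1G77890 at 0.18 and AT2G27080 at 0.19, with wild type responses of 0.82, 0.98 and 1.02 and mutant values of 0.22, 0.15 and 0.14. Among the 5 genes themselves the value ran from 0.38, for AT3G21670 and UGT71B1, to 2.39, for ICL and AT3G22060. AT3G21670 and UGT71B1 have the smallest SDs of the 5, 0.43 and 0.29, so their value of 0.38 does not show a shared pattern. Around AT3G22060, 5 other measured genes were listed for the block from AT3G21900 to AT3G22050. Their responses ranged from -0.18 to 0.48 in wild type and from -0.39 to 0.20 in the mutant. Their genotype differences ranged from -0.34 to 0.12 in water and from -0.57 to 0.06 in chitooctaose. AT3G21950, measured in the same stretch but not listed, responded by -0.42 ± 0.18 in wild type and -0.16 ± 0.18 in the mutant. Its genotype differences were -0.41 ± 0.18 in water and -0.14 ± 0.18 in chitooctaose, and limma called none of these.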

How the data were processed

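The authors deposited linear intensities, 1 for each probe set and array, from 12 one-colour Affymetrix arrays. Per the labels' protocols, 8 ug of Trizol-extracted RNA went into each biotin-labelled cRNA. The sources used here do not give the authors' summary, background or scaling steps for the intensities. No intensity was below 0. After log2(intensity + 16), with no further scaling, a model with 1 mean per group was fitted to 22746 probe sets (64 controls left out) with limma 3.58.1 in R 4.3.3, using eBayes with a mean-variance trend and a Benjamini-Hochberg adjustment within each of 5 comparisons. Of these probe sets 13513 have 1 named gene, 503 have several and 8730 have none. Of the 13513, 13436 matched TAIR10.1, used to name genes and to order the protein-coding ones. No coordinates are given because no build is named for the arrays.

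The 5 genes and the gene lists were chosen with earlier results of these data known. Named are the 5 genes, measured neighbours within 10 genes, those called alike in both genotype comparisons within 100, up to 4 called genes per list (otherwise the 2 of lowest p), and the 3 closest genes by likeness. Other genes named complete a count and were chosen after their values were seen. A gene with several probe sets is counted in a list by its brightest. Lists that the gene table does not annotate, and seed storage genes, of which 0 were measured, are not used as families here. Replicate numbers were not used to pair the arrays in the main fit, and whether they pair them is not settled. Deviations from the group means correlated above 0.1 in 6 of 18 same-numbered pairs (-0.129 to 0.223, median 0.0514). Among pairs of other numbers they did so in 4 of 36 (-0.203 to 0.205, median -0.0411). Alternative settings were a pseudocount of 1 or 64, median centring, quantile normalization, dropping the dimmest 40% of probe sets, a replicate block, no trend, only the groups compared, other distances, and each array left out in turn. The fit was tested on simulated data. Figures used Python 3.11.15 and matplotlib 3.10.9.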

Additional observations from a re-analysis of the deposited data

Results flagged for a closer look

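The response to chitooctaose differed between the genotypes, by the test of that difference itself (mutant minus wild type, limma over all 22746 probe sets), at 3 of 23 probe sets within 25 genes of the receptor gene and at 8 of 77 within 100 (10.4%), against 11.3% of all probe sets. AT3G21650 rose in wild type by 0.93 and stood at -0.23 in the mutant, a difference of -1.15 ± 0.17 (adjusted p = 0.00014). For AT3G21770 the wild type value was -0.35 and that of the mutant 0.25, a difference of 0.60 ± 0.10 (adjusted p = 0.00031), so its genotype difference has opposite signs in water and in chitooctaose. Both differences kept their call under the alternatives run, from -1.27 to -1.02 for AT3G21650 and from 0.56 to 0.68 for AT3G21770. At AT3G21790 the difference was -0.52 ± 0.14 (adjusted p = 0.017), and its call was lost without wild type water replicate 1, mutant chitooctaose replicate 1 or mutant water replicate 2. Farther out AT3G22550 differed by -0.67 ± 0.11.

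Other genes named in the report also passed this test. Among the lists these were UGT71C1 (0.65), UGT71C3 (0.46), IVD (0.89) and MCCA (0.49), and the root markers AT1G52070 (1.32), AT1G52060 (1.28), EXPA18 (0.55), EXPA7 (0.52) and AT5G17820 (0.48). The calls of EXPA7 and EXPA18 were lost in several fits without an array and without a mean-variance trend. Among the genes named for their likeness they were AT2G04070 (0.90), AT2G27080 (-0.88), AT1G77890 (-0.83), AT1G80130 (-0.78), AT2G28570 (-0.60) and AT3G15570 (0.44), which were picked on these same arrays. Groups of 3 arrays are too small for a check of single arrays that stand apart.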

How the results depend on the processing

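The genotype differences of the 5 genes kept their sign in every alternative run, from 3.08 to 3.88 in water for ICL, 0.91 to 2.47 for AT3G21620, 0.47 to 0.61 for UGT71B1, 0.26 to 0.35 for AT3G21670 and -0.76 to -0.43 for AT3G22060. AT3G21620 was not tested without the dimmest 40%, being among them. The number of the 5 called for a response was 2 or 3 in wild type (3 as reported) and 1 in the mutant throughout. For the difference of the responses it was 0 as reported, 1 with a pseudocount of 64, and 0 to 1 without single arrays. Neighbours called in wild type, the 5 genes included, were 16 within 100 genes and numbered 7 within 50 and 39 within 200, and in the mutant, 2 within 100, they numbered 1 and 5. Quantile normalization and median centring gave 4 each in the mutant, and leaving out single arrays 2 to 4, the 4 without wild type chitooctaose replicate 1. Over all probe sets the 339 mutant calls became 676 with quantile normalization, 672 with median centring, 193 without a trend and 155 to 671 without single arrays. For the difference of the responses 1060 were higher and 1505 lower, and 2042 and 1666 with quantile normalization. The replicate block left the 5 genes' calls as reported, 3 in wild type and 1 in the mutant. Precision is limited by 3 arrays a group, and for AT3G21620 by a wild type signal under the arrays' lower quartile.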
